A study of Mus musculus with 6 samples.

Results

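The 10 genes described here encode the mTOR kinase, the subunits that define its complexes, and the switch and targets next to it. They are Mtor, Rptor, Rictor, Mlst8, Akt1s1, Tsc1, Tsc2, Rheb, Rps6kb1 and Rps6kb2. They were chosen by name, with earlier results of these data known, and all 10 were found among the 55487 gene identifiers of each deposited file. RNA was sequenced from freshly prepared naive CD4+ T cells, mature helper T cells that have not yet met their antigen. They came from mesenteric lymph node (mLN), the node that drains the intestine, in 3 libraries, or from spleen, which filters blood, in 3 libraries. All mice were wild type (WT) of strain C57BL6/J and had no treatment, and their age and sex and the way the naive cells were purified are not given in the labels. The comparison asks how the transcripts of naive CD4+ T cells differ between these organs. Fold changes are mLN over spleen, on a log2 scale where stated.

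mTOR is a kinase that works in 2 complexes. In mTORC1 it is joined by Raptor (Rptor) and senses amino acids and growth signals, and in mTORC2 it is joined by Rictor and acts on kinases such as Akt. The small GTPase Rheb switches mTORC1 on at the lysosome, and the TSC complex, made of Tsc1 and Tsc2, switches Rheb off. The S6 kinases, encoded by Rps6kb1 and Rps6kb2, are phosphorylated by mTORC1 and promote protein synthesis. In mouse T cells, Tsc1 is needed to keep naive cells quiescent, and mTORC1 activity rises when the T cell receptor is engaged. Transcript levels do not report the activity of these proteins.

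The expected counts summed to between 13205499 and 20054205 in mLN libraries and between 14224966 and 17862485 in spleen libraries. A floor of 3 counts in a library corresponded to 0.149 to 0.225 CPM (CPM being the counts per megacount of the scaled library), for counting error only, and all 10 genes lay far above it. The labels do not say whether libraries came from separate animals, so p-values speak only of library-to-library spread, which could be technical. The 9 naive T cell markers were all detected and summed to between 6357 and 6422 CPM in mLN and between 6643 and 6820 CPM in spleen. The 12 myeloid markers summed to between 12.2 and 12.4 CPM in mLN and between 60.8 and 68.3 CPM in spleen, 6 of 8 tested were lower in mLN and 0 higher, and Spic was at 0 in all mLN libraries. The 8 B cell markers summed to between 10.4 and 18.2 CPM in mLN and between 31.4 and 35.5 CPM in spleen, with 5 of 8 lower in mLN and 0 higher (3 lower without mLN replicate 1 or 2 or spleen replicate 3), and the 7 dendritic cell markers to between 0.751 and 1.10 CPM in mLN and between 5.55 and 9.97 CPM in spleen, with Flt3, Clec9a and Batf3 at 0 in mLN. The part of these other cells in the results was not tested, and in bulk RNA fewer cells of a type cannot be told apart from less RNA per cell. Fold changes also followed transcript length: across the 12486 genes tested, log2 fold change and length had a Spearman's rho of 0.370 (genes are not independent samples). Results are therefore also given with a smooth trend on length, on GC content, or on both removed from each library. The length trend was fitted on each gene's effective length, a deposited estimate, averaged over the libraries.

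Mtor, Rptor and Tsc2 were 1.43-fold, 1.46-fold and 1.43-fold higher in mLN cells, and the other 7 genes did not pass the test. The called genes were the kinase, the subunit that defines mTORC1 and a subunit of its inhibitor. Akt1s1, also of mTORC1, was not called. Rictor, which defines mTORC2, had nearly equal counts in both tissues. Its log2 fold change was -0.34 with the length trend removed and 0.15 with the GC trend removed. In edgeR's quasi-likelihood test with Benjamini-Hochberg adjustment over all genes, 3 of the 10 members were higher at an adjusted p under 0.05 and 0 were lower. Over all genes tested, 16.1% were called higher and 13.5% lower. The median log2 fold change was 0.18 over the 10 members and -0.01 over all genes tested. These medians were 0.07 and -0.02 with the length and GC trends both removed. With both the length and GC trends removed, 1 member, Tsc2, was called higher and 0 lower, against 10.3% and 11.1% of all genes. With only the GC trend removed, 6 were higher and 0 lower, against 17.7% and 14.4% of all genes, and with only the length trend removed, 2 were higher and 1 lower, against 11.1% and 12.1%.

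**Figure D1:**
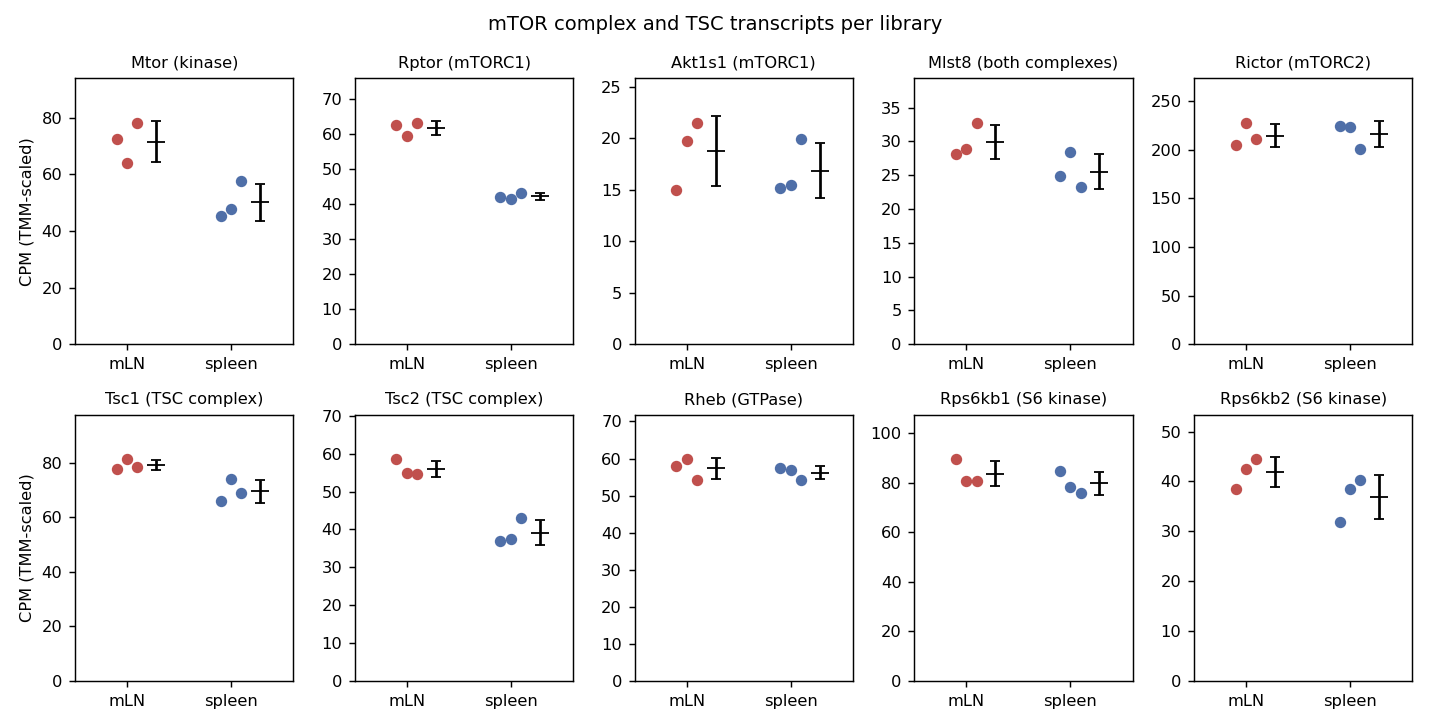
CPM of each gene in each library (points; y axis in CPM, scaled by TMM factors, from 0), with the mean and SD of each tissue (black), mLN left of spleen, n = 3 each. The mLN points lie above all spleen points for Mtor, Rptor, Tsc1 and Tsc2.

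The promoters of the 3 called genes and of Rictor, which was not called, are shown. Each window runs from 250 bases before to 50 bases after the transcript start in RefSeq's GRCm38.p6 annotation, the assembly that mm10 names, and is printed 5′ to 3′ on the strand of the gene. Capitals mark matches, on either strand, to any of 8 motifs. The GC box of Sp and Klf factors was searched as GGGCGG and the core of ETS factor sites as CCGGAA. The E-box bound by Myc, Usf and TFEB was searched as CACGTG, and the CCAAT box by the letters of its name. The CRE was searched as TGACGTCA and the TATA box as TATAAA. The site of NRF1 was searched as GCGCATGC and that of YY1 as ATGGCGGC. In the Rictor window 1 GC box and the CCAAT box overlap by 2 bases. The windows lie at chr4:148448332-148448631 on the plus strand (Mtor), chr11:119602655-119602954 on the plus strand (Rptor), chr17:24632578-24632877 on the minus strand (Tsc2) and chr15:6708131-6708430 on the plus strand (Rictor).
Mtor: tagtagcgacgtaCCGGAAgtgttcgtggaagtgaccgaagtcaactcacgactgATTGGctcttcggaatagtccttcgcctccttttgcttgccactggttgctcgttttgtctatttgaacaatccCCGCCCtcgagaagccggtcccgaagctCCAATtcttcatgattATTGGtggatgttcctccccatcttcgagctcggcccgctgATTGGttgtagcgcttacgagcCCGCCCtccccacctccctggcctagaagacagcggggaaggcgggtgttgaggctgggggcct
Rptor: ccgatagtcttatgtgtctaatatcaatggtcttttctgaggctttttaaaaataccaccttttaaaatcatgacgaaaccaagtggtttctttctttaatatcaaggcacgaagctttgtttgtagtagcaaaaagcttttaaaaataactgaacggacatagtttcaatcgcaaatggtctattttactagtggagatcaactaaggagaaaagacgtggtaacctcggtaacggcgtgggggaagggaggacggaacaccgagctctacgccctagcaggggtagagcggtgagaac
Tsc2: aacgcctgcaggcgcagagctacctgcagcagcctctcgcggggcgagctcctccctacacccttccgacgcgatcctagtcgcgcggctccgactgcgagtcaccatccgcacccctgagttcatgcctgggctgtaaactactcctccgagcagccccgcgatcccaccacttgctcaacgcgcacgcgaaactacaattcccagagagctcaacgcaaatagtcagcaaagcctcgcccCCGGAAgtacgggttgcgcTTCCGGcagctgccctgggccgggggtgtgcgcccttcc
Rictor: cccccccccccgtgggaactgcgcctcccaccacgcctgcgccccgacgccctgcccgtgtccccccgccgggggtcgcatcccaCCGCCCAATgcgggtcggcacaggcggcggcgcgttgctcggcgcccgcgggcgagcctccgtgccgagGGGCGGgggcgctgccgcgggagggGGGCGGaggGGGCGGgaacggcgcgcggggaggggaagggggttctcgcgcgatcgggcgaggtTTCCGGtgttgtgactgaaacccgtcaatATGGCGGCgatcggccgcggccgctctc

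The 3 windows of the genes higher in mLN had little in common by these letters. The Mtor window held 4 CCAAT boxes, 2 GC boxes and 1 ETS core, the Tsc2 window held 2 ETS cores flanking the start, and the Rptor window held none of the 8 motifs. The Rictor window held 4 GC boxes, 1 ETS core, 1 CCAAT box and 1 YY1 match. GC content was 56.7% for Mtor, 41.7% for Rptor, 65.0% for Tsc2 and 78.3% for Rictor, against a median of 52.7% over the 32851 promoters of the table. Among all promoters, 35.7% held a GC box, 37.4% a CCAAT box, 14.9% an ETS core, 13.6% a TATA box, 7.15% an E-box, 2.71% an NRF1 match, 2.24% a YY1 match and 1.79% a CRE. Of the 9 members with a window in the table (Rps6kb2 had none), 0 held a CRE or a TATA box, Rps6kb1 held 2 NRF1 matches, Tsc1 held 1 YY1 match, and Rheb held 3 ETS cores and the single E-box. A match is a description of the letters and not evidence of binding.

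Mtor (ENSMUSG00000028991), the kinase of both complexes, lies on chromosome 4 between positions 148448611 and 148557683 of the plus strand of mm10. It had 72.4, 64.0 and 78.3 CPM in mLN replicates 1, 2 and 3, against 45.2, 47.7 and 57.6 CPM in spleen replicates 1, 2 and 3. The groups did not overlap, and spleen replicate 3 was the spleen library nearest to mLN. The mean was 71.6 ± 7.20 CPM in mLN and 50.2 ± 6.55 CPM in spleen (SD, n = 3 each). The fold change was 1.43, or 0.51 on the log2 scale with a standard error of 0.10 (adjusted p = 5.94e-04, edgeR). Once the length trend was removed, Mtor had a log2 fold change of 0.24 (adjusted p = 0.125), and with both trends removed it was 0.17 (adjusted p = 0.242), so the call did not hold under either. It held with only the GC trend removed, where the log2 fold change was 0.47 (adjusted p = 1.37e-04). On the deposited TPM values, which are per length, Mtor had 13.5, 14.0 and 15.9 TPM in mLN and 10.1, 9.36 and 13.0 TPM in spleen, and limma on log2 TPM plus 1 gave an adjusted p of 0.111.

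Rptor (ENSMUSG00000025583), the scaffold that brings substrates to mTORC1, is on chromosome 11, plus strand, from 119602905 to 119899576. Its libraries were the least scattered of the called genes, with 62.4, 59.5 and 63.1 CPM in mLN and 41.9, 41.3 and 43.1 CPM in spleen. The tissues did not overlap. The means were 61.7 ± 1.95 CPM in mLN and 42.1 ± 0.925 CPM in spleen (SD, n = 3 each), a 1.46-fold difference. Its log2 fold change was 0.55 ± 0.09 (standard error; adjusted p = 8.95e-05, edgeR). It was 0.33 with the length trend removed (adjusted p = 0.0124) and 0.19 with both trends removed (adjusted p = 0.107). In TPM the levels were 16.4, 17.4 and 17.0 in mLN and 9.54, 10.3 and 11.1 in spleen. Akt1s1, which encodes PRAS40, an inhibitory partner of mTORC1, was the lowest member in CPM and among the most variable, with 14.98, 19.7 and 21.5 CPM in mLN and 15.1, 15.5 and 19.9 CPM in spleen. Its groups overlapped and its log2 fold change of 0.16 had a 95% interval from -0.17 to 0.48 (adjusted p = 0.539, edgeR).

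Rictor (ENSMUSG00000050310), on the plus strand of chromosome 15 between 6708379 and 6800401, is the subunit that defines mTORC2. It had the most counts of the 10 genes, with 205, 228 and 211 CPM in mLN and 224, 223 and 201 CPM in spleen. The groups overlapped. The log2 fold change was -0.01 with a standard error of 0.07 and a 95% interval from -0.14 to 0.12 (adjusted p = 0.942, edgeR). Rictor also has the longest transcript of the members, at 8700 nt, and its result depended on the correction. It was lower in mLN by a log2 fold change of -0.34 with the length trend removed (adjusted p = 4.33e-04), higher by 0.15 with the GC trend removed (adjusted p = 0.0296), and at -0.14 with both removed (adjusted p = 0.0938). Mlst8, a subunit shared by both complexes, had 28.2, 28.8 and 32.8 CPM in mLN and 24.9, 28.4 and 23.3 CPM in spleen. Spleen replicate 2 reached the mLN range, and the log2 fold change of 0.23 (standard error 0.13) did not pass the test (adjusted p = 0.183, edgeR). Mlst8 shares 22.5% of its exon bases with Bricd5 on the opposite strand, which had at most 0.446 CPM in any library.

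**Figure D2:**
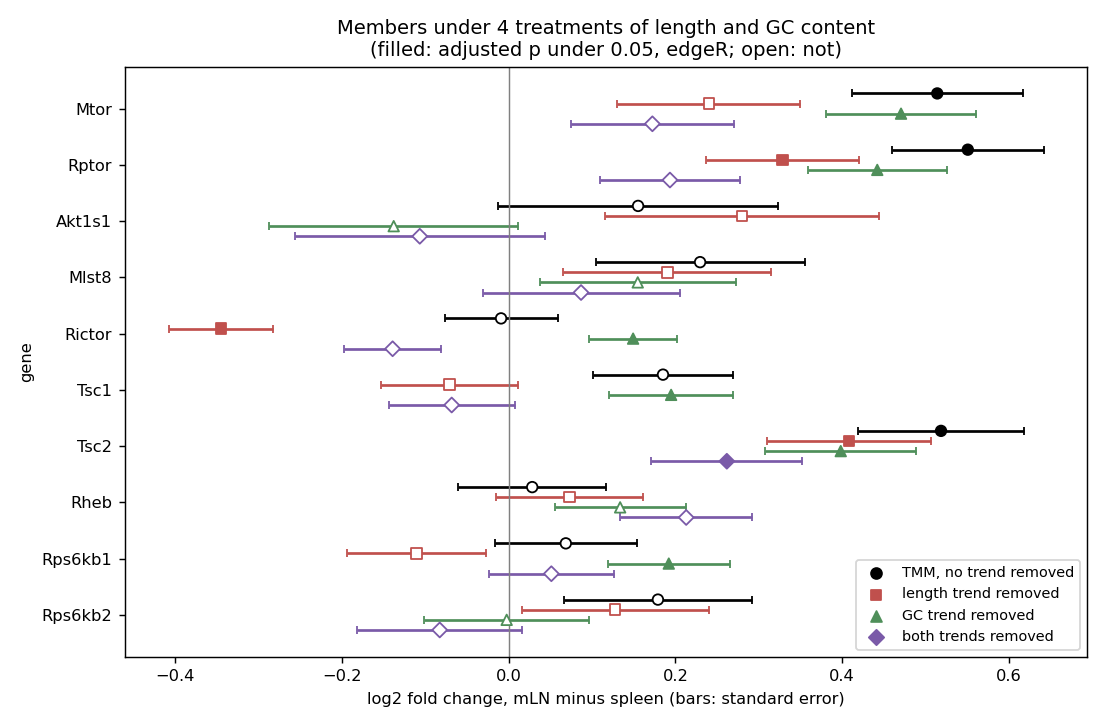
Log2 fold change of each gene (x axis, mLN minus spleen; bars are standard errors) under 4 treatments of length and GC content, with filled symbols for an adjusted p under 0.05 in edgeR. Tsc2 stays filled in all 4, while Rictor lies below 0 when the length trend is removed and above 0 when the GC trend is removed.

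Tsc2 (ENSMUSG00000002496), which encodes the part of the TSC complex that acts on Rheb, is on chromosome 17, minus strand, from 24595816 to 24632630. It had 58.5, 54.9 and 54.7 CPM in mLN, against 36.8, 37.5 and 42.9 CPM in spleen. All mLN libraries lay above all spleen libraries. The log2 fold change was 0.52 with a standard error of 0.10, or 1.43-fold (adjusted p = 4.06e-04, edgeR), and it was 0.41 with the length trend removed (adjusted p = 0.00458) and 0.26 with both trends removed (adjusted p = 0.0364). The 3' end of Tsc2 shares 693 exon bases, 7.20% of its exon bases, with Pkd1 on the opposite strand. Pkd1 was also higher in mLN, at 284 ± 21.8 CPM against 191 ± 8.17 CPM in spleen (SD, n = 3 each; log2 fold change 0.57, adjusted p = 1.93e-06, edgeR). The strand setting of the counting is not given in the sources used here, so reads of the shared bases cannot be assigned with certainty. Expected counts were whole in all 6 libraries for 8 of the 10 members (within 0.005), and were fractional in 4 libraries for Tsc2 and in 6 for Rps6kb2.

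Tsc1, which stabilises Tsc2, had 77.8, 81.2 and 78.3 CPM in mLN and 65.8, 74.0 and 68.8 CPM in spleen. The groups did not overlap, but the difference was small, at 1.14-fold or 0.19 on the log2 scale with a standard error of 0.08, and it did not pass the test (adjusted p = 0.103, edgeR). It passed with the GC trend removed (0.19, adjusted p = 0.0439) and stood at -0.07 with both trends removed (adjusted p = 0.597). Separation of the groups without overlap in CPM was seen for 4 of 10 members, all higher in mLN, against 21.5% of all genes tested that were higher and 20.3% that were lower in this way. Rheb, the GTPase that TSC controls, had 58.1, 59.8 and 54.3 CPM in mLN and 57.5, 56.8 and 54.3 CPM in spleen. Its groups overlapped, and the log2 fold change of 0.03 had a 95% interval from -0.14 to 0.20 (adjusted p = 0.850, edgeR).

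The S6 kinase genes did not pass the test. Rps6kb1 had 89.4, 80.6 and 80.6 CPM in mLN and 84.9, 78.2 and 76.0 CPM in spleen, which gave a log2 fold change of 0.07 ± 0.08 (standard error; adjusted p = 0.598, edgeR). With the GC trend removed it was 0.19 (adjusted p = 0.0440). Rps6kb2 had 38.6, 42.5 and 44.4 CPM in mLN and 32.0, 38.5 and 40.3 CPM in spleen, with overlapping groups and a log2 fold change of 0.18 (adjusted p = 0.258, edgeR). Rps6kb2 shares 23.7% of its exon bases with Ptprcap on the opposite strand, a gene of CD45-associated protein at 248 ± 31.6 CPM in mLN and 278 ± 42.4 CPM in spleen (SD, n = 3 each), so its counts are uncertain.

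Levels were compared between genes on the TPM scale, which is per length. Rheb was the most abundant of the 10 in both tissues, at 52.1 ± 1.82 TPM in mLN and 40.8 ± 0.376 TPM in spleen (SD, n = 3 each). Rictor came next, at 36.0 ± 2.17 TPM in mLN and 30.8 ± 2.53 TPM in spleen (SD, n = 3 each), and its range did not overlap that of Rheb in either tissue. In mLN the lowest levels were those of Rptor, at 16.9 ± 0.477 TPM, and Mtor, at 14.5 ± 1.27 TPM, whose ranges did not overlap. In spleen Mtor stood at 10.8 ± 1.95 TPM and Rptor at 10.3 ± 0.786 TPM, with overlapping ranges (SD, n = 3 each). The 6 genes between Rictor and Rptor in mLN, which were Rps6kb2, Tsc2, Rps6kb1, Akt1s1, Mlst8 and Tsc1 from high to low, each overlapped the next in range. In spleen every neighbour from Rictor downwards overlapped the next.

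**Figure D3:**
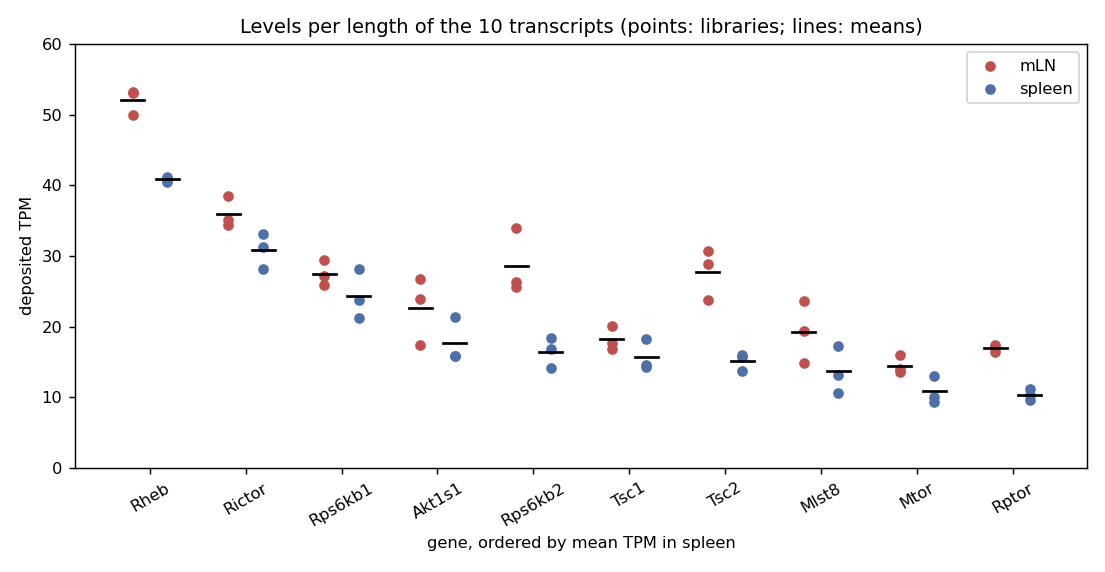
Deposited TPM of each gene in each library (points) with tissue means (lines), mLN left of spleen for each gene, ordered by the spleen mean. Rheb and Rictor lead in both tissues, and Mtor and Rptor are lowest.

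On the TPM scale 6 of the 10 genes had mLN libraries above all spleen libraries and 0 had them below, against 35.1% and 6.22% of all genes tested. The median log2 fold change of all genes was itself 0.21 on log2 TPM plus 1. On that scale limma called 4 members higher and 0 lower, against 22.1% and 3.08% of all genes, and they were Rptor, Tsc2, Rheb and Rps6kb2. With each library centred on its median, Tsc2 alone was called (log2 fold change 0.59, adjusted p = 0.0278), against 6.39% of all genes higher and 7.58% lower. TPM and counts differ in part through the effective length that the authors' software assigned to each gene in each library from the mix of its transcripts. For Mtor the effective length was 7687, 6485 and 6957 nt in mLN, against 5371, 6069 and 5256 nt in spleen, so mLN libraries were all longer. For Rps6kb2 it was 2157, 1779 and 2394 nt in mLN, against 2721, 2490 and 2857 nt in spleen, so mLN libraries were all shorter. For Rictor it stayed between 8368 and 8671 nt in mLN and between 8022 and 8590 nt in spleen. The transcripts behind these shifts are estimates, and the shifts were not tested.

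Within a library, the ratio of 2 transcripts does not depend on the scaling between libraries. The TPM ratio of Rptor over Rictor was 0.468, 0.452 and 0.494 in mLN, against 0.306, 0.310 and 0.396 in spleen. The groups did not overlap, and the log2 difference was 0.49. Tsc1 over Tsc2 was 0.583, 0.844 and 0.575 in mLN, against 1.04, 1.14 and 0.929 in spleen, a log2 difference of -0.65 with no overlap, which was -0.33 in CPM, also with no overlap. Rps6kb1 over Rps6kb2 was 1.06, 0.761 and 1.12 in mLN, against 1.504, 1.29 and 1.68 in spleen, a log2 difference of -0.62 with no overlap. In CPM, which is not per length, the Rps6kb1 over Rps6kb2 difference was -0.12 with overlapping groups. Each of these 3 TPM ratios had an exact two-sided permutation p of 0.10, the smallest that 3 against 3 libraries allow, and 0.167 after Benjamini-Hochberg adjustment over the 5 ratios computed. Rheb over Mtor did not overlap in CPM (log2 difference -0.49, exact permutation p = 0.10). On TPM, Tsc1 over Mtor and Rheb over Mtor overlapped between tissues, with log2 differences of -0.21 and -0.08 and an exact permutation p of 0.60 each. These ratios compare genes of different length and GC content, whose trends were not removed from them.

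**Figure D4:**
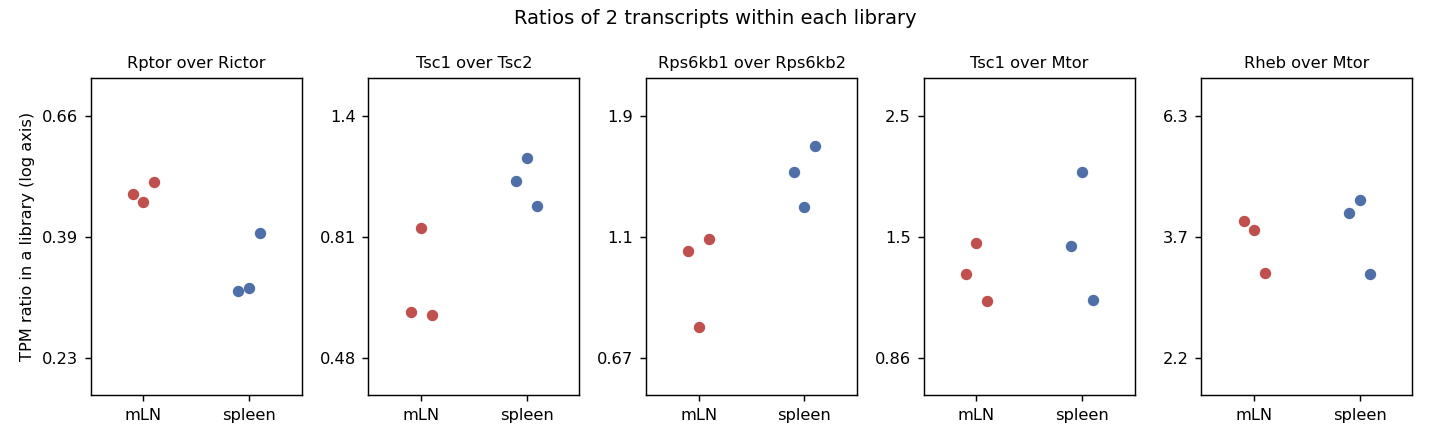
TPM ratio of 2 genes in each library (points; log axis of equal span in each panel), mLN left of spleen. Rptor over Rictor lies higher in all mLN libraries, Tsc1 over Tsc2 and Rps6kb1 over Rps6kb2 lie lower, and the other ratios overlap.

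Around these genes, 12 lists of pathway genes were read by role. Of 106 tested genes other than the members, 24 were higher in mLN (22.6%) and 15 lower (14.2%), against 16.1% and 13.5% of all genes tested in edgeR. The median log2 fold change was 0.02. With the length trend removed 19 were higher and 13 lower, against 11.1% and 12.1% of all genes. With the GC trend removed 22 were higher and 22 lower, against 17.7% and 14.4%. With both removed 17 were higher and 14 lower, against 10.3% and 11.1%. Among further subunits and assembly factors of the mTOR complexes, 0 of 8 tested genes were called in either direction (median 0.04), and 1 was called higher without spleen replicate 2. Tti1, of the assembly machinery, had 50.3 ± 3.46 CPM in mLN and 43.8 ± 2.31 CPM in spleen (SD, n = 3 each; adjusted p = 0.142, edgeR). Ruvbl1 had a log2 fold change of -0.19 (adjusted p = 0.224), and Deptor, an inhibitory subunit, was barely expressed, at 1.52 ± 0.304 CPM in mLN and 0.789 ± 0.149 CPM in spleen (SD, n = 3 each; adjusted p = 0.245, edgeR).

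Of 11 other genes of the TSC and Rheb axis, 4 were higher and 0 lower (median 0.07), against 16.1% and 13.5% of all genes. With the length trend removed 3 were higher and 0 lower, against 11.1% and 12.1% of all genes. On median-centred log2 TPM 1 was higher and 0 lower, against 6.39% and 7.58%. The count higher in edgeR was 2 without mLN replicate 2 or 3 and 1 without spleen replicate 2. Gsk3b, a kinase that phosphorylates Tsc2, had 125 ± 1.52 CPM in mLN and 85.3 ± 3.46 CPM in spleen (SD, n = 3 each), 1.47-fold higher (adjusted p = 1.09e-05, edgeR). Prkag2, a regulatory subunit of AMP-activated kinase, was 1.31-fold higher (adjusted p = 0.0168), and Ddit4, which encodes the stress-induced mTORC1 inhibitor REDD1, was 1.29-fold higher (adjusted p = 0.0289). The call of Ddit4 was lost without mLN replicate 3 or without spleen replicate 1 or 2 (adjusted p between 0.0556 and 0.0995, edgeR), and its log2 fold change of 0.37 was 0.22 without mLN replicate 3. The call of Prkag2 was lost without mLN replicate 1 or 2 or without spleen replicate 2 (adjusted p between 0.0666 and 0.102, edgeR).

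The arm that senses amino acids at the lysosome went both ways. The list of Rag GTPases and Ragulator, which anchor mTORC1 to the lysosome, also held Slc38a9. Of its 10 genes 3 were lower and 1 higher (median -0.25), against 13.5% and 16.1% of all genes tested. Without mLN replicate 1 or without spleen replicate 2, 1 was lower. Lamtor5 was at 0.602 times its spleen level (adjusted p = 4.26e-04), Rraga at 0.774 (adjusted p = 0.0250) and Rragd, at 6.10 ± 0.677 CPM in mLN and 2.98 ± 0.427 CPM in spleen (SD, n = 3 each), 2.04-fold higher (adjusted p = 0.0101, edgeR). On log2 TPM plus 1, where the median of all genes was 0.21, 2 were higher and 1 lower (median 0.02). The shares of all genes there were 22.1% and 3.08%. On median-centred log2 TPM 0 were higher and 1 lower (median -0.23). With the length trend removed 1 of the 10 was lower and 1 higher, the median was -0.09, and Rraga lost its call (adjusted p = 0.101). Rraga also lost it without mLN replicate 1 or 3 or without spleen replicate 1 or 2 (adjusted p between 0.0588 and 0.116). The list of GATOR1, which inhibits the Rag GTPases, and its anchor KICSTOR also held Rnf167. Of its 7 tested genes, against 16.1% and 13.5% of all genes, 3 were higher and 0 lower. They included Itfg2, with a log2 fold change of 0.66 (adjusted p = 0.00134; 0.167 on log2 TPM plus 1, limma), and Depdc5, with 0.34 (adjusted p = 0.0267, edgeR). Depdc5 lost its call with the length trend removed (adjusted p = 0.112), with upper-quartile factors (0.0561), and without mLN replicate 1 or 2 or without spleen replicate 2 or 3 (adjusted p between 0.0619 and 0.141).

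In GATOR2, which opposes GATOR1, 1 of 5 genes was lower and 0 higher, Sec13 at 0.771 times the level in spleen (adjusted p = 0.00155; 0.0742 with the length trend removed, edgeR). Seh1l had a log2 fold change of -0.20 (adjusted p = 0.104; 0.0169 without spleen replicate 3) and Wdr59 of 0.18 (adjusted p = 0.331). Of the 3 FLCN complex genes 0 were called, with log2 fold changes of 0.16 for Flcn (adjusted p = 0.223), -0.13 for Fnip1 (adjusted p = 0.404; -0.39 and 0.00595 with the length trend removed, edgeR) and -0.52 for Fnip2 (adjusted p = 0.638), which had 0.578 ± 0.187 CPM in mLN and 0.838 ± 0.478 CPM in spleen (SD, n = 3 each). Among 7 amino acid sensor genes 1 was higher and 1 lower, both sestrins. Sesn1 had 93.1 ± 7.49 CPM in mLN and 174 ± 10.2 CPM in spleen, and Sesn3 had 453 ± 22.0 CPM in mLN and 342 ± 12.4 CPM in spleen (SD, n = 3 each). Sesn1 was lower by a log2 fold change of -0.90 (adjusted p = 4.28e-08, edgeR) and by -0.95 with the length trend removed. Sesn3 was higher by 0.41 (adjusted p = 2.21e-05, edgeR). It was at 0.08 with the length trend removed (adjusted p = 0.268) and at 0.12 with both trends removed (adjusted p = 0.0307, edgeR). Sar1b had a log2 fold change of -0.30 (adjusted p = 0.102; 0.0148 without spleen replicate 1, where it was -0.45).

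Amino acid transporters were the list with the highest share called in 1 direction (median 0.30). Of 7 tested genes 5 were higher and 0 lower, against 16.1% and 13.5% of all genes tested. The count higher was 3 without mLN replicate 3 or without spleen replicate 2. Slc7a5, the large neutral amino acid transporter, had 62.1 ± 3.65 CPM in mLN and 34.1 ± 2.84 CPM in spleen (SD, n = 3 each), 1.82-fold higher (adjusted p = 1.55e-06, edgeR). Slc7a1, a cationic amino acid transporter, was 1.67-fold higher (adjusted p = 5.88e-07), and Slc38a1, which carries glutamine, was 1.37-fold higher (adjusted p = 3.27e-05). With the length trend removed 4 of the 7 were higher and 0 lower (median 0.23), and the log2 fold changes of Slc7a5, Slc7a1 and Slc38a1 were 0.76, 0.45 and 0.23.

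Downstream of the complexes the lists were mixed. Of 16 mTORC1 substrates and effectors, 5 were higher and 2 lower (median 0.13). The count higher was 3 without mLN replicate 2 or spleen replicate 2, and the count lower was 1 without either of these or spleen replicate 1. Larp1, which binds the messages of ribosomal proteins, was 1.49-fold higher (adjusted p = 3.31e-06, edgeR). Its log2 fold change of 0.57 was 0.18 with both trends removed (adjusted p = 0.0121). Eif4ebp2, an inhibitor of cap-dependent translation, was 1.33-fold higher (adjusted p = 1.16e-05, edgeR). With both trends removed its log2 fold change was 0.05 (adjusted p = 0.472). Rps6, the ribosomal protein that S6 kinases phosphorylate, had a fold change of 0.708 (adjusted p = 4.30e-07, edgeR). Of 8 mTORC2 substrates 3 were higher and 1 lower (median 0.05), which became 1 higher and 2 lower with the length trend removed. Akt1 was higher by a log2 fold change of 0.38 (adjusted p = 0.00143, edgeR). Its adjusted p was 0.0505 with the GC trend removed and 0.376 with both trends removed, where it was at 0.09. Prkca was 1.33-fold higher (adjusted p = 0.00143, edgeR). For Prkca the adjusted p was 0.154 with the length trend removed and 0.00858 with both removed. Sgk3 had a fold change of 0.744 (adjusted p = 0.00258, edgeR, and 0.348 on log2 TPM plus 1, limma).

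Of 8 genes of the ATF4 and serine pathway list, 2 were higher and 1 lower (median -0.06). Shmt2, a mitochondrial enzyme of serine and glycine metabolism, had 75.8 ± 9.20 CPM in mLN and 47.8 ± 4.55 CPM in spleen (SD, n = 3 each; 1.58-fold, adjusted p = 3.38e-05, edgeR), and Aldh18a1, of proline synthesis, was 1.40-fold higher (adjusted p = 0.00145; 0.126 with both trends removed). Psph had a fold change of 0.769 (adjusted p = 0.0399), a call lost without any 1 of the 6 libraries (adjusted p between 0.0520 and 0.137) and with the length trend removed (0.0980). Of 16 lysosomal genes that TFEB can activate, 6 were lower and 0 higher (median -0.07), against 13.5% and 16.1% of all genes. On log2 TPM plus 1, where the median of all genes was 0.21, 3 were higher and 0 lower (median 0.12). The shares of all genes there were 22.1% and 3.08%. On median-centred log2 TPM 0 were higher and 2 lower (median -0.13), against 6.39% and 7.58% of all genes. Without mLN replicate 2, 3 of the 16 were lower in edgeR. Lamp2 was at 0.694, Ctsb at 0.805 and Ctsd at 0.809 of its spleen level (adjusted p = 7.40e-04, 0.00185 and 5.59e-04, edgeR), but none of these 3 calls held on log2 TPM plus 1 in limma. There the log2 fold change was -0.30 for Lamp2 (adjusted p = 0.102), 0.0751 for Ctsb (adjusted p = 0.649) and -0.04 for Ctsd (adjusted p = 0.706). On median-centred log2 TPM Ctsb lost its call (-0.17, adjusted p = 0.316, limma), while Lamp2 and Ctsd kept theirs. Myeloid cells also express these lysosomal genes, and the myeloid markers that were lower in the same mLN libraries are given above. Their part in these 3 differences was not tested.

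**Figure D5:**
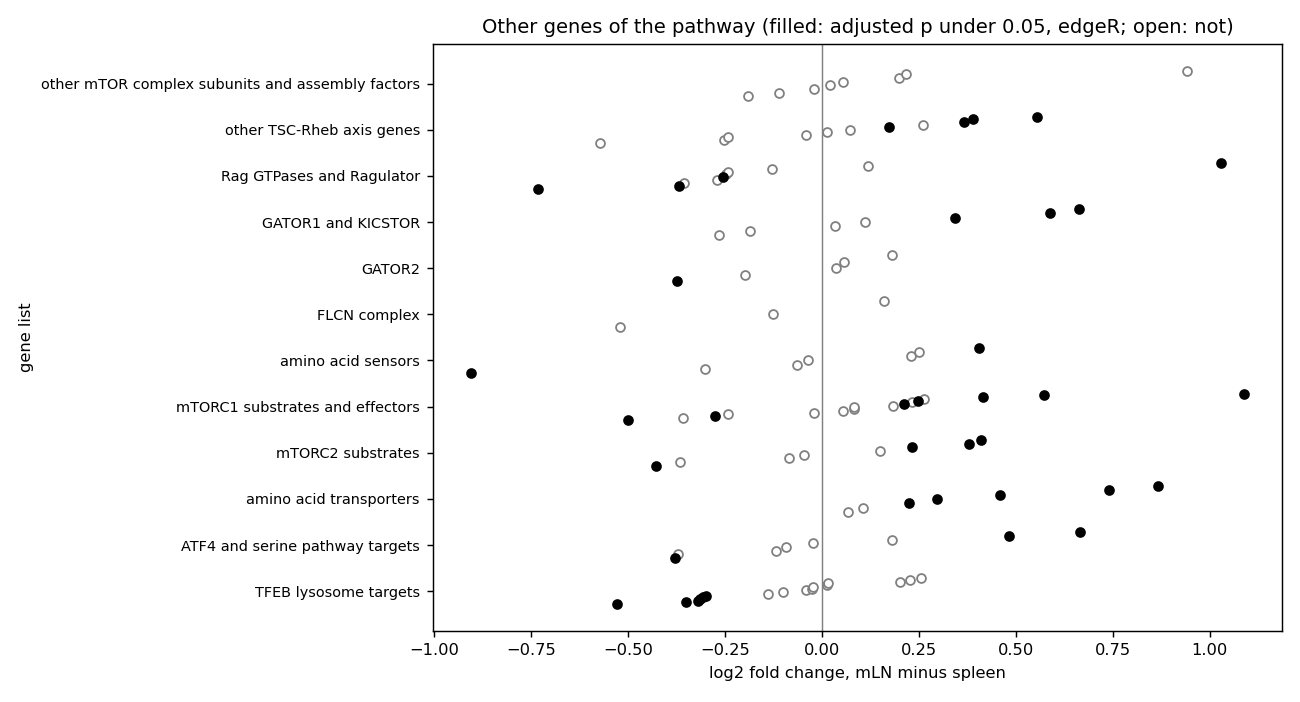
Log2 fold change (x axis, mLN minus spleen) of each tested gene in the 12 pathway lists (rows), filled where the adjusted p was under 0.05 in edgeR. Amino acid transporters show filled points only above 0, and TFEB lysosome targets only below 0. On log2 TPM plus 1, 3 of those targets were called, all above 0, and on median-centred log2 TPM 2 were, all below 0.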

How the data were processed

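Naive CD4+ T cell RNA was sequenced in 3 mLN and 3 spleen libraries, made with a directional kit per the labels. Per the submitters' processing notes the tools were STAR and RSEM and the build was mm10. Tool versions, strand setting and annotation release: not given in the sources used here. Expected counts, as deposited, are estimated reads for each gene without normalization, and the deposited TPM values are scaled by the authors for effective length and library, both per the file headers. Gene and effective lengths are the deposited values.

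The members and lists were chosen with earlier results of these data known. Of 55487 identifiers, 55141 received a symbol from a table of mouse gene names. Positions, overlaps and transcript GC content came from GENCODE vM21 (GRCm38), promoters from RefSeq (GRCm38.p6); the NRF1 and YY1 motifs were added after the sequences were read. Expected counts were rounded, filtered with filterByExpr (12486 genes) and scaled by TMM factors. Tissue was the single term of edgeR's quasi-likelihood test (two-sided). P-values were Benjamini-Hochberg adjusted over every tested gene, and 0.05 was the threshold. A standard error is the log2 fold change divided by the root of the F statistic, and 95% intervals span 1.96 standard errors to each side. Trends were removed as loess fits (span 0.3) of log2 CPM on the logarithm of mean effective length or on transcript GC content, entered as offsets. The removal of both trends was chosen after seeing the data. All 10 members are named, as are the 3 genes of smallest p in each pathway list, called or not, except 1 that is not reported here. Replicates of a tissue differed beyond counting noise (chi-square per degree of freedom 5.60 to 11.9). Numbers shared between tissues in the labels were not used as pairs in the main test. On simulated counts of 12486 genes in 3 and 3 libraries the test recovered 53.2% of 47 genes changed 1.5-fold. Of 49 genes changed 1.3-fold it recovered 22.4%. The changed genes were drawn at random over all tested genes, low counts included, so these shares are not those of the 10 members. Software was Python 3.11.15 with pandas 2.3.3, numpy 2.4.6, scipy 1.17.1 and matplotlib 3.10.9, and R 4.3.3 with DESeq2 1.42.0, limma 3.58.1 and edgeR 4.0.16. Alternatives were DESeq2, limma-voom, upper-quartile and RLE factors, limma on log2 TPM with a pseudocount of 1 or 0.1 and with centring, other filters, a replicate block, a threshold of 0.01, omitted gene classes, the trends, and each library left out.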

Additional observations from a re-analysis of the deposited data

How the results depend on the processing

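Mtor, Rptor and Tsc2 kept their direction under every alternative run and were each called whichever 1 of the 6 libraries was left out, with 3 members higher and 0 lower in each of these fits. Of 220 comparisons of the 10 members with an alternative setting, 187 kept both direction and side of the threshold, 7 lost a call, 8 gained one and 18 changed sign. Members called higher numbered 6 with the GC trend removed, and 1 on median-centred log2 TPM or with both trends removed. Of the members, 1 was called lower with the length trend removed. Of the sign changes, that of Rictor with the GC trend removed (0.15) was called. Rictor also changed sign to 0.219 on log2 TPM plus 1 and 0.225 on log2 TPM plus 0.1, and ranged from -0.0710 to 0.0181 when 1 library was left out. Tsc1 changed sign to -0.0397 on median-centred log2 TPM, -0.0710 with the length trend removed and -0.0682 with both trends removed, and Rps6kb1 to -0.0725 and -0.111 with centring and with the length trend removed. Akt1s1 changed sign to -0.138 with the GC trend and -0.106 with both trends removed, and Rps6kb2 to -0.0023 and -0.0826 there. Rheb changed sign to -0.0187 with upper-quartile factors and ranged from -0.0072 to 0.0586 when 1 library was left out. The median of the members was 0.14 with upper-quartile factors, 0.37 on log2 TPM plus 1, 0.39 on log2 TPM plus 0.1, 0.12 on median-centred log2 TPM and 0.069 with both trends removed, and it ranged from 0.13 to 0.25 over the fits that left out 1 library. Over all genes, 2757 were higher and 384 lower on log2 TPM plus 1 (87.8% higher, against 54.3% in edgeR's test), 389 were lower on log2 TPM plus 0.1, and 798 were higher and 947 lower on median-centred log2 TPM. With both trends removed 1284 were higher and 1385 lower. At a threshold of 0.01, 1406 of 12486 were higher and 1069 lower. The 106 wider pathway genes gave 38 higher and 3 lower on log2 TPM plus 1 and on log2 TPM plus 0.1. They gave 7 and 6 on median-centred log2 TPM, and 14 and 8 at a threshold of 0.01. Leaving out 1 library gave 16 to 21 of them higher and 10 to 15 lower. Over all genes the same fits gave 1500 to 1970 higher and 1324 to 1710 lower. On log2 TPM plus 1 and log2 TPM plus 0.1, Ctsb changed sign to 0.0751 and 0.0758, Ruvbl1 to 0.0752 and 0.0768, Seh1l to 0.0428 and 0.0439 and Fnip1 to 0.116 and 0.124. Deptor changed sign to -0.140 on median-centred log2 TPM, Wdr59 to -0.0134 with the length trend removed, Fnip1 to 0.0323 with the GC trend removed, and Flcn to -0.0971 and Sar1b to 0.0029 with both trends removed. The Tsc1 over Mtor difference ranged from -0.40 to 0.0011 and that of Rheb over Mtor from -0.22 to 0.0183 when 1 library was left out. With the replicate number as a block, 4 members were higher, Tsc1 being added (adjusted p = 0.0392, edgeR), and 2566 genes were higher and 2140 lower. Deviations of same-numbered libraries correlated at 0.00972, -0.00336 and 0.0545. Such low values over all genes, most of them noise, cannot show whether same-numbered libraries were paired. The cause of these changes was not tested.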

Other observations

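Over the 6 libraries, the genes whose centred log2 CPM lay closest to that of Mtor, among 8845 named genes with a mean of at least 5 CPM, were Dusp7, Cherp and Pigt, with root mean square differences of 0.0302, 0.0360 and 0.0367 log2 units. Dusp7 had 80.3, 72.1 and 89.8 CPM in mLN and 51.6, 52.6 and 67.5 CPM in spleen. Like Mtor, it was highest in mLN replicate 3 and, among spleen libraries, in spleen replicate 3. It was picked for its closeness to Mtor over these same 6 libraries, so this likeness is no separate result.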
